A study of Homo sapiens
Mus musculus with 16 samples.

Results

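The 7 host genes described here belong to the vascular endothelial growth factor (VEGF) system and were followed across the 4 treatment groups of a mouse xenograft study. They were the receptors Kdr and Flt1, the co-receptors Nrp1 and Nrp2 and the ligands Vegfa, Vegfb and Pgf, taken by these names from the mouse expression table. All 7 were present among the 23337 mouse genes listed, and all 7 passed the filter on low values that left 17484 genes to test. None of the 7 passed a test corrected for all mouse genes in any comparison.

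Tumours of ScaBER, an established squamous carcinoma line from human bladder, had been grown in athymic nude mice (Hsd:Athymic Nude-Foxn1nu), which lack thymus-derived T cells. The animals received for 14 days nintedanib at 40 mg/kg together with alpelisib at 25 mg/kg (the combination), alpelisib at 25 mg/kg alone, nintedanib at 40 mg/kg alone, or vehicle (0.5% methylcellulose with 0.1% Tween80). Each group had 4 libraries, 16 in all, and every group shared the same cell line and the same mouse strain. Whether the libraries of a group came from separate animals is not in the labels. P-values therefore reflect spread among libraries, which need not be spread among animals. Libraries of a group differed in tissue content, as in the muscle transcripts given below.

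VEGF ligands are secreted proteins that bind receptor tyrosine kinases on endothelial cells. Kdr (VEGF receptor 2) carries most of the signal for growth and permeability of vessels, and Flt1 (VEGF receptor 1) binds Vegfa, Vegfb and Pgf with high affinity and signals weakly. The neuropilins Nrp1 and Nrp2 hold ligand beside these receptors and also bind class 3 semaphorins. Nintedanib blocks the kinases of the VEGF, PDGF and FGF receptors, and alpelisib (BYL719) blocks the alpha isoform of PI3K, which acts downstream of growth factor receptors.

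Reads had been mapped to the human and to the mouse genome, so that host and tumour transcripts were listed apart. The mouse tables rest on 3606008 to 6850491 recovered reads per library and the human tables on 8303617 to 18568119. The libraries nintedanib 4 and combination 1 stood apart by skeletal muscle transcripts. Summed normalized reads of 14 muscle genes were 115 to 135726 in combination libraries, 165 to 18382 in alpelisib libraries, 1398 to 219247 in nintedanib libraries and 158 to 30404 in vehicle libraries. The highest combination and nintedanib values were those of combination 1 and nintedanib 4. Other lists had libraries apart too: the summed adipocyte markers were highest in vehicle 1 (24506) and alpelisib 4 (15814), and the summed skin and hair markers in alpelisib 1 (13510). In RNA from whole tumours, fewer cells of a type and less RNA per cell cannot be told apart. Levels are given as normalized reads, which compare libraries within a gene but, not being scaled to length or 3′ end capture, not one gene with another.

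Kdr was lowest and least variable in the combination group. Its normalized reads were 335, 342, 364 and 347 in combination libraries, 420, 308, 404 and 410 in alpelisib libraries, 266, 445, 341 and 426 in nintedanib libraries, and 458, 418, 730 and 480 in vehicle libraries. All 4 combination libraries lay below all 4 vehicle libraries, while 3 of 4 alpelisib libraries and 2 of 4 nintedanib libraries did so. Means were 347 ± 12.1, 386 ± 52.3, 369 ± 82.4 and 522 ± 141 normalized reads (SD, n = 4) with the combination, alpelisib, nintedanib and vehicle. The order of group means was vehicle, alpelisib, nintedanib, combination, and the 3 drug groups overlapped one another.

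For Kdr the log2 fold change against vehicle on the log2(value + 1) scale was -0.55 (SE 0.20, limma adjusted p = 0.466) with the combination, -0.41 (SE 0.20, limma adjusted p = 1) with alpelisib and -0.49 (SE 0.20, limma adjusted p = 0.735) with nintedanib. The combination value corresponds to a 0.682-fold level with a 95% interval of 0.513 to 0.906. A two-sided exact permutation test of Kdr gave p = 0.0286 for the combination, the smallest p that 4 against 4 libraries allow, 0.0571 for alpelisib and 0.0857 for nintedanib. Vehicle 3, at 730, was the highest of all libraries, and without it the log2 fold changes were -0.38, -0.24 and -0.32 for the combination, alpelisib and nintedanib. The 3 comparisons share the vehicle libraries.

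Flt1 showed its highest values with vehicle as well. Normalized reads were 226, 140, 165 and 307 in combination libraries, 146, 122, 193 and 247 in alpelisib libraries, 174, 190, 218 and 198 in nintedanib libraries, and 269, 301, 497 and 214 in vehicle libraries. In all, 2 of 4 combination libraries and 3 of 4 libraries of each single drug lay below every vehicle library, so each drug group overlapped vehicle. Means were 210 ± 74.5, 177 ± 55.2, 195 ± 18.5 and 320 ± 123 normalized reads (SD, n = 4) with the combination, alpelisib, nintedanib and vehicle. The order of group means was vehicle, combination, nintedanib, alpelisib, with differences among the drug groups smaller than their spread.

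The Flt1 log2 fold change against vehicle was -0.60 (SE 0.27, limma adjusted p = 0.617) with the combination, -0.83 (SE 0.27, limma adjusted p = 1) with alpelisib and -0.65 (SE 0.27, limma adjusted p = 0.754) with nintedanib. Exact permutation tests gave p = 0.2, 0.0571 and 0.0571 in that order. Without vehicle 3 the log2 fold changes were -0.37, -0.60 and -0.41. The table counts reads per gene, so the soluble and the membrane-bound product of Flt1 were not told apart.

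**Figure D1:**
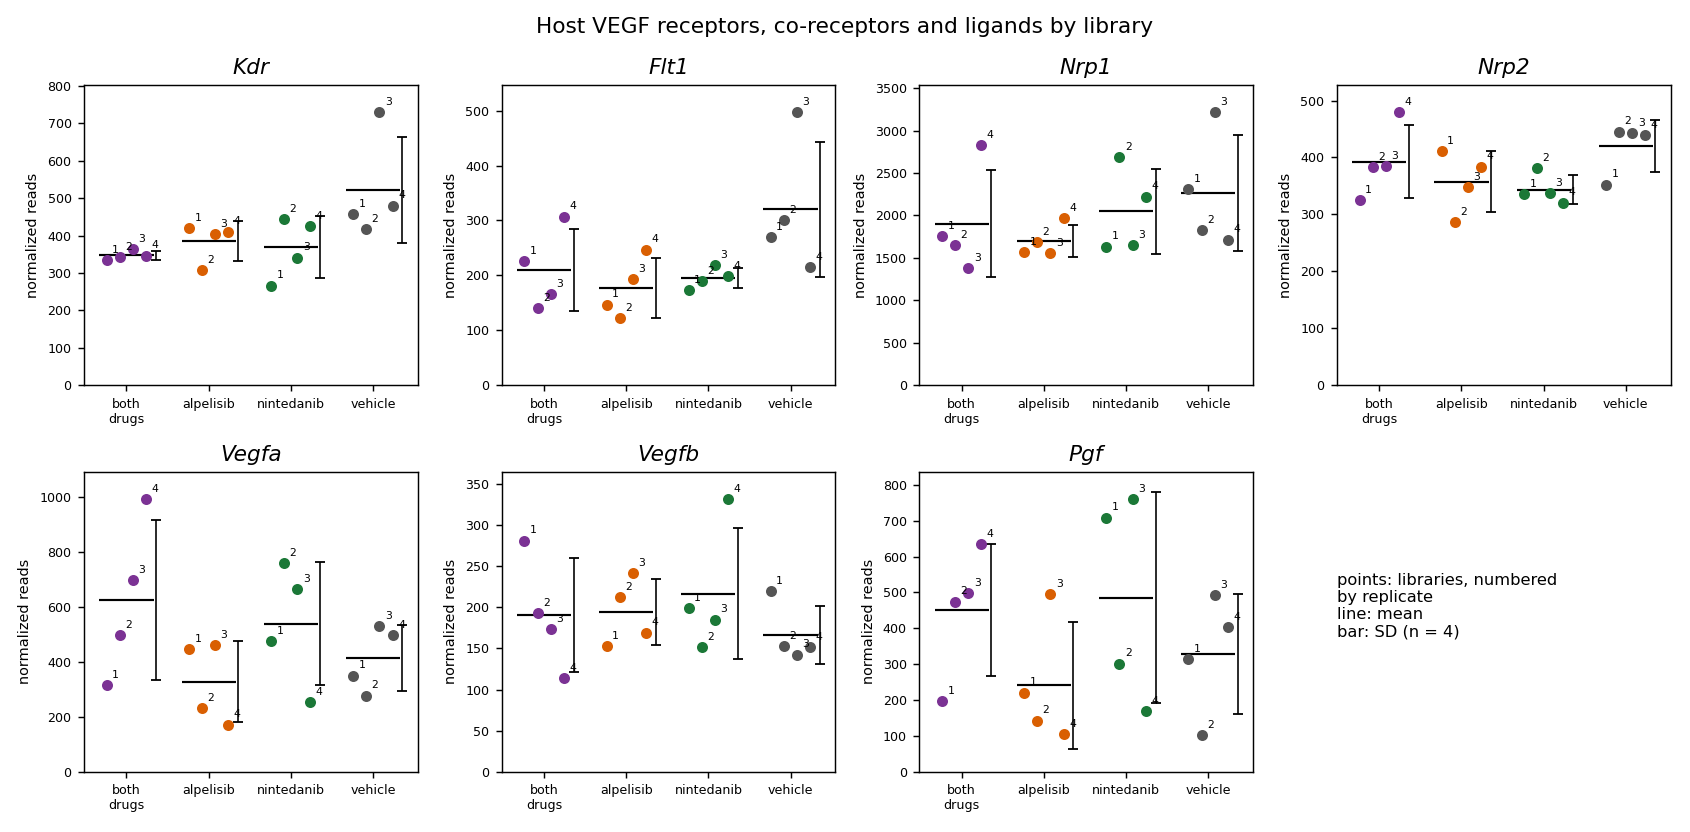
Normalized reads (vertical axes, linear and starting at 0) of the 7 host genes in each library, by group, with the group mean as a line and the SD of 4 libraries as a bar. For Kdr all 4 combination libraries (335 to 364) sit below all 4 vehicle libraries (418 to 730), and in the other 6 panels every drug group overlaps vehicle.

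Across the 7 genes, 0 passed an adjusted p of 0.05 in limma in any of the 8 comparisons computed. The share of all tested mouse genes that passed was 0.0515% for the combination against vehicle, 0.0972% for nintedanib averaged over both levels of alpelisib, and 0% for each of the other comparisons, so a count of 0 among 7 genes lies at the background. Quasi-likelihood tests in edgeR and DESeq2 on recovered reads likewise called 0 of 7. Without adjustment, Kdr and Flt1 had p under 0.05 in each comparison with vehicle, which is 2 of 7 genes in each. The background of such p-values among all mouse genes was 7.67% for the combination, 3.26% for alpelisib and 6.01% for nintedanib. Groups that did not overlap were found for 1 of 7 genes with the combination against 3.85% of all genes, for 0 of 7 with alpelisib against 2.10%, and for 0 of 7 with nintedanib against 3.69%.

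Averaged over both levels of alpelisib, nintedanib was associated with a Kdr log2 fold change of -0.32 (SE 0.14, limma adjusted p = 0.540) and a Flt1 log2 fold change of -0.21 (SE 0.19, limma adjusted p = 0.810). Kdr and Vegfa were the 2 of 7 genes with an unadjusted p under 0.05 in this contrast, against 8.80% of all mouse genes. The interaction of the drugs, the combination minus each single drug plus vehicle, was 0.88 for Flt1 on the log2 scale (SE 0.39, 95% interval 0.06 to 1.69, limma adjusted p = 1, unadjusted p = 0.0357) and 0.35 for Kdr (SE 0.28, limma adjusted p = 1). A positive interaction means here that the combination lay above the sum of the log2 fold changes of the single drugs.

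**Figure D2:**
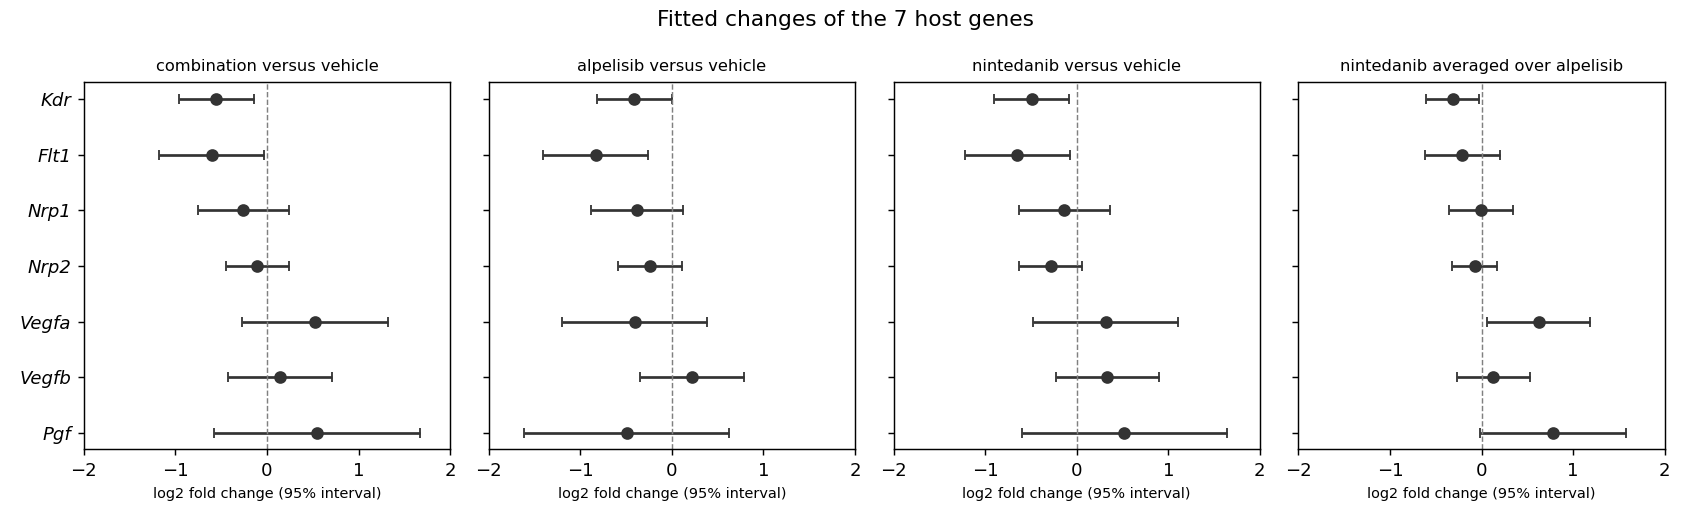
Log2 fold change on the log2(value + 1) scale (horizontal axes) of the 7 host genes with 95% intervals, in 4 comparisons. The intervals of Kdr and Flt1 lie below 0 in each comparison with vehicle, those of the other 5 genes cross 0 there, and none of these values passed the adjusted threshold.

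Kdr and Flt1 are made mainly by endothelial cells, so their levels were set beside 20 other endothelial markers. These markers were present in all groups, with at most 1 of the 20 at 0 in a library, and their summed normalized reads were 3828 to 6188 in combination libraries, 5921 to 8742 in alpelisib libraries, 3752 to 7003 in nintedanib libraries and 7014 to 8826 in vehicle libraries. All 20 had a log2 fold change below 0 with the combination against vehicle (median -0.67, beside 0.03 over all mouse genes), 14 of 20 with alpelisib (median -0.09, beside 0.01) and 17 of 20 with nintedanib (median -0.68, beside 0.02). In these comparisons 0 of 20 passed in limma, with 9, 0 and 8 at an unadjusted p under 0.05. Such p-values were found for 7.67%, 3.26% and 6.01% of all mouse genes in that order. EdgeR called 0 in each, while DESeq2 called 3 with the combination and 0 with each single drug. Over all mouse genes DESeq2 called 82 with the combination, 1 with alpelisib and 29 with nintedanib. Without the 2 muscle-rich libraries limma called 1 with the combination (20 of 20 below 0, median -0.72) and 1 with nintedanib (18 of 20 below 0, median -0.84). Over all mouse genes limma called 24 and 3 there.

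Averaged over alpelisib, 2 of the 20 endothelial markers fell with nintedanib in limma. Esam, an adhesion molecule of endothelial junctions, fell by 0.82 on the log2 scale (SE 0.15, limma adjusted p = 0.0343). Cdh5, the VE-cadherin that joins endothelial cells, fell by 0.91 on the log2 scale (SE 0.18, limma adjusted p = 0.0479). For Cdh5, normalized reads were 399, 300, 301 and 312 with the combination, 467, 566, 639 and 656 with alpelisib, 187, 302, 349 and 534 with nintedanib and 543, 521, 702 and 865 with vehicle. All combination libraries lay below all alpelisib and all vehicle libraries, and 1 nintedanib library, nintedanib 4, reached the vehicle range. Combination and vehicle did not overlap for 3.85% of all mouse genes, and Cdh5 was named for its small p. In edgeR both missed the threshold (adjusted p = 0.0587 for Esam and 0.0671 for Cdh5). In limma the Esam call was also lost without any one of combination 3, alpelisib 2 or 4, nintedanib 1, 2 or 3 and vehicle 1, 3 or 4, and the Cdh5 call without any one of these or of combination 2 or 4 and alpelisib 3. Both calls were lost under scaling to the human plus mouse total of recovered reads (limma adjusted p = 0.366 for Esam and 0.337 for Cdh5). Without the trend of variance with level both were lost too (limma adjusted p = 0.159 for Esam and 0.1785 for Cdh5). The Esam call was lost with the replicate number as a block (limma adjusted p = 0.103). That of Cdh5 was lost without the filter on low values (limma adjusted p = 0.0649). Without the 2 muscle-rich libraries 6 of 20 fell in limma, and the median was -0.70, against -0.56 with all libraries. DESeq2 called 5 of 20 in this contrast. Over all mouse genes the calls were 54 in limma without those libraries and 158 in DESeq2. With all libraries 12 of 20 had an unadjusted limma p under 0.05, against 8.80% of all mouse genes.

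Per library, Kdr and Flt1 were then expressed relative to the mean log2 level of the 20 markers. Relative Kdr was 1.68 ± 0.38, 1.30 ± 0.14, 1.65 ± 0.36 and 1.63 ± 0.41 log2 units with the combination, alpelisib, nintedanib and vehicle (SD, n = 4). The difference from vehicle was 0.05 log2 units with the combination, -0.33 with alpelisib and 0.02 with nintedanib, with two-sided exact permutation p of 1, 0.114 and 1. With nintedanib, alone or combined, the difference was smaller than the SD of either group. With alpelisib the value ran from -0.40 to -0.12 on leaving out each library, the last without vehicle 3.

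Relative Flt1 was 0.89 ± 0.64, 0.14 ± 0.28, 0.75 ± 0.45 and 0.89 ± 0.61 log2 units in the combination, alpelisib, nintedanib and vehicle groups (SD, n = 4). The alpelisib difference from vehicle was -0.75 log2 units (two-sided exact permutation p = 0.0571). Leaving out each library in turn gave -0.96 to -0.48 for it, with an exact permutation p of 0.0286 at the lowest, without vehicle 4. The combination differed by -0.003 and nintedanib by -0.14 log2 units (exact permutation p = 1 and 0.8). Averaged over alpelisib, nintedanib differed by 0.20 log2 units for Kdr and 0.31 for Flt1, with exact permutation p of 0.258 and 0.297 over 4900 arrangements within levels of alpelisib. Without the 2 muscle-rich libraries the Kdr value became 0.36 (exact permutation p = 0.0465).

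**Figure D3:**
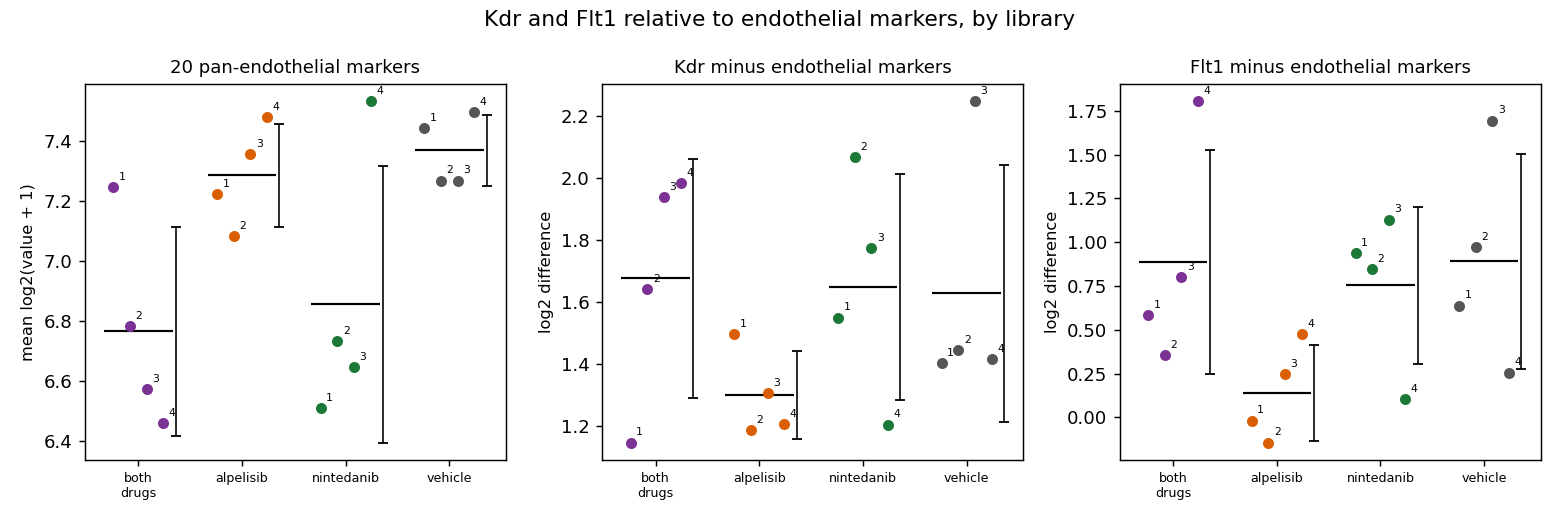
The mean log2(value + 1) of 20 endothelial markers in each library (left), and log2 Kdr (middle) and log2 Flt1 (right) minus that mean, with group means and SD of 4 libraries. The marker mean is 6.46 to 7.25 in combination libraries and 7.27 to 7.49 in vehicle libraries, while relative Kdr overlaps between these groups (1.15 to 1.98 and 1.40 to 2.25).

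The co-receptors differed less between groups than the kinase receptors. Nrp1 had 1757, 1651, 1383 and 2828 normalized reads in combination libraries, 1572, 1690, 1557 and 1965 in alpelisib libraries, 1633, 2685, 1650 and 2223 in nintedanib libraries, and 2312, 1830, 3218 and 1714 in vehicle libraries. The highest single library was vehicle 3, as for Kdr and Flt1, and all groups overlapped. Its log2 fold changes against vehicle were -0.26 with the combination, -0.38 with alpelisib and -0.13 with nintedanib (SE 0.24, limma adjusted p = 0.861, 1 and 0.963). The combination and nintedanib values turned positive (0.07 and 0.0004) when libraries were scaled to the human plus mouse total of recovered reads.

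Nrp2 was the steadiest of the 7 genes, with a 1.67-fold range over the 16 libraries. It had 325, 383, 384 and 479 normalized reads in combination libraries, 412, 287, 348 and 384 in alpelisib libraries, 335, 381, 338 and 321 in nintedanib libraries, and 352, 445, 443 and 439 in vehicle libraries. The other 3 vehicle libraries stood together above all alpelisib and all nintedanib libraries, and vehicle 1 lay among the drug-treated libraries. The log2 fold changes against vehicle were -0.10, -0.24 and -0.29 with the combination, alpelisib and nintedanib (SE 0.17, limma adjusted p = 0.938, 1 and 0.882). The combination and alpelisib values turned to 0.22 and 0.001 under that scaling to the human plus mouse total. It raised the median of all mouse genes by about as much, to 0.32 with the combination, 0.23 with alpelisib and 0.14 with nintedanib, beside 0.03, 0.01 and 0.02.

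Vegfa, the main ligand of Kdr and a target of hypoxia-inducible factors, varied widely within every group. Normalized reads were 315, 499, 700 and 994 in combination libraries, 447, 232, 463 and 172 in alpelisib libraries, 478, 760, 667 and 253 in nintedanib libraries, and 350, 277, 530 and 497 in vehicle libraries. Of Vegfa values, 2 combination and 2 nintedanib libraries lay above every vehicle library, and 2 alpelisib libraries lay below every one. Means were 627 ± 291, 328 ± 148, 540 ± 224 and 414 ± 120 normalized reads with the combination, alpelisib, nintedanib and vehicle (SD, n = 4).

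The Vegfa log2 fold change against vehicle was 0.52 with the combination, -0.41 with alpelisib and 0.31 with nintedanib (SE 0.38, limma adjusted p = 0.796, 1 and 0.941). Leaving out each library in turn gave 0.26 to 0.81, -0.61 to -0.14 and 0.11 to 0.64 in that order. The combination against alpelisib gave 0.93 (SE 0.38, limma adjusted p = 0.798), with 3 of 4 combination libraries above all alpelisib libraries. Averaged over alpelisib, nintedanib gave 0.62 (SE 0.27, 95% interval 0.06 to 1.18, limma adjusted p = 0.527). The libraries nintedanib 4 and combination 1 had the lowest Vegfa of their groups, and without them the averaged value was 0.93 (limma adjusted p = 0.101), the smallest adjusted p that any of the 7 genes reached under any setting.

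Pgf, the placental growth factor that binds Flt1, had the widest range of the 7 genes. Normalized reads were 197, 475, 498 and 636 in combination libraries, 221, 142, 495 and 105 in alpelisib libraries, 709, 302, 761 and 169 in nintedanib libraries, and 314, 103, 494 and 403 in vehicle libraries. All groups overlapped widely, and the same 2 muscle-rich libraries were the lowest of their groups. The log2 fold change was 0.55 with the combination, -0.49 with alpelisib and 0.52 with nintedanib against vehicle (SE 0.54, limma adjusted p = 0.881, 1 and 0.937). Vehicle 2, at 103, was the lowest of all libraries, and without it these values were 0.06, -0.98 and 0.04. It was 1.04 with the combination against alpelisib (SE 0.54, limma adjusted p = 0.874). Averaged over alpelisib, nintedanib gave 0.78 (SE 0.38, limma adjusted p = 0.576), and 1.17 without the 2 muscle-rich libraries (limma adjusted p = 0.196).

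Host Vegfa and Pgf moved together across the 16 libraries. Pearson's r of their log2 values was 0.831 (permutation p = 8e-05, adjusted p = 0.000512 over 32 relations) and Spearman's rho was 0.779 (permutation p = 0.00046, adjusted p = 0.00245). With group means subtracted r was 0.785, and without the 2 libraries farthest from the Pgf median, alpelisib 4 and vehicle 2, it was 0.763. Each also moved with 22 genes of the hypoxia response, such as Pgk1, Ldha and Pdk1 of glycolysis and its control. For Vegfa r was 0.874 (permutation p = 2e-05, adjusted p = 0.000213), rho 0.862 (permutation p = 5e-05, adjusted p = 0.000533) and r within groups 0.865. For Pgf r was 0.878 (permutation p = 2e-05, adjusted p = 0.000213), rho 0.874 (permutation p = 4e-05, adjusted p = 0.000533) and r within groups 0.891. Without the 2 libraries with the most extreme hypoxia response, r remained 0.849 for Vegfa and 0.785 for Pgf.

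The hypoxia list itself lay above 0 for 22 of 22 genes with the combination against vehicle (median log2 fold change 0.48, beside 0.03 over all genes) and with nintedanib against vehicle (0.52, beside 0.02). With alpelisib 5 of 22 lay above 0 (median -0.09, beside 0.01). Under scaling to the human plus mouse total that median was 0.15, below the 0.23 over all genes. In limma 0 of 22 passed, with 6, 0 and 4 at an unadjusted p under 0.05 for the combination, alpelisib and nintedanib. The background of such p-values was 7.67%, 3.26% and 6.01% of all mouse genes. EdgeR and DESeq2 called 0 in each. Averaged over alpelisib all 22 lay above 0 with nintedanib (median 0.55) and 0 passed in limma or edgeR. In that contrast 11 had an unadjusted p under 0.05, against 8.80% of all mouse genes. DESeq2 called 3 there, beside 158 over all mouse genes. Pgk1 came nearest, at 0.68 (SE 0.15, limma adjusted p = 0.113). Summed levels were 18393 to 26382 normalized reads with the combination, 10178 to 19647 with alpelisib, 19779 to 33729 with nintedanib and 10770 to 19433 with vehicle. The sum was highest in nintedanib 4 and combination 1 of their groups, and several of its enzymes are abundant in muscle. On the mean log2 level, which weights the 22 genes alike, these libraries were the lowest of their groups instead (8.19 in nintedanib 4 and 8.45 in combination 1), and both drug groups overlapped vehicle, as in vehicle 3 (8.51). Without this pair 21 of 22 lay above 0 with the combination (median 0.62) and 20 of 22 with nintedanib (median 0.71). Averaged over alpelisib 21 did (median 0.75), and limma then called Pdk1 alone (adjusted p = 0.0439), a gene named here after its values were seen.

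**Figure D4:**
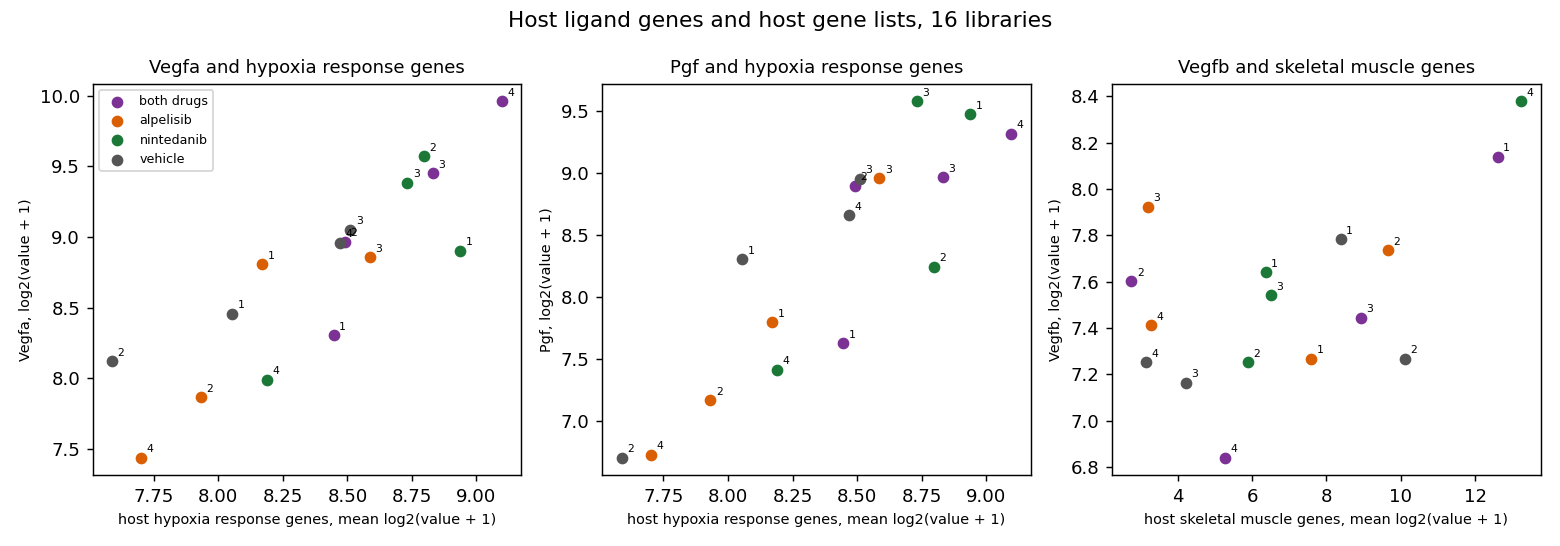
Log2(value + 1) of host Vegfa and Pgf against the mean log2(value + 1) of 22 host hypoxia response genes, and of host Vegfb against that of 14 skeletal muscle genes, in 16 libraries numbered by replicate and coloured by group. Vegfa and Pgf climb along the hypoxia axis (r = 0.874 and 0.878), and the 2 highest Vegfb values belong to the 2 muscle-rich libraries.

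Vegfb, a ligand of Flt1 that is abundant in muscle and fat, took another course. Normalized reads were 281, 193, 173 and 114 in combination libraries, 153, 212, 242 and 169 in alpelisib libraries, 199, 151, 185 and 332 in nintedanib libraries, and 219, 153, 142 and 151 in vehicle libraries. The highest values were in nintedanib 4 and combination 1, and all groups overlapped. Within vehicle the highest was vehicle 1, which also had the highest summed adipocyte markers, whose part in it was not tested. The log2 fold change against vehicle was 0.14 with the combination, 0.22 with alpelisib and 0.34 with nintedanib (SE 0.27, limma adjusted p = 0.950, 1 and 0.906), and the combination value was -0.07 without the 2 muscle-rich libraries. Over all libraries r with the muscle genes was 0.543 (permutation p = 0.0285, adjusted p = 0.0760) and rho 0.435 (permutation p = 0.0919, adjusted p = 0.210). Without those 2 libraries r was 0.0761, so that relation rests on them.

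Vegfb ran against Nrp2. Their r was -0.823 (permutation p = 0.0001, adjusted p = 0.000533) and rho -0.838 (permutation p = 0.00014, adjusted p = 0.000896), with r of -0.828 within groups and -0.786 without combination 4 and nintedanib 4. Among the receptors, Flt1 and Nrp1 had r of 0.707 (permutation p = 0.00201, adjusted p = 0.00919) and rho of 0.685 (permutation p = 0.00436, adjusted p = 0.0199), with r of 0.675 within groups and 0.400 without combination 4 and vehicle 3. Kdr and Flt1 had r of 0.655 (permutation p = 0.00837, adjusted p = 0.0335) but rho of 0.400 (permutation p = 0.125, adjusted p = 0.249), and r was 0.216 without alpelisib 2 and vehicle 3, on which the relation rests. Kdr and the 20 endothelial markers had r of 0.540 (permutation p = 0.0240, adjusted p = 0.0760) and rho of 0.600 (permutation p = 0.0151, adjusted p = 0.0602). For them r was 0.293 within groups and 0.397 without combination 4 and nintedanib 1. Flt1 was only weakly related to these markers, with r of 0.217 (permutation p = 0.427, adjusted p = 0.594) and rho of 0.268 (permutation p = 0.314, adjusted p = 0.457). Within groups the r of Flt1 with them was 0.041.

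The tumour genes of the same names were read from the human table of the same libraries. Human KDR was nearly absent, with 0 to 5 reads per library against 285 to 605 reads of mouse Kdr. Human FLT1 was low, at 4.35 to 55.7 normalized reads. The median ratio of mouse to human normalized reads in a library was 16.3 for Nrp1 and 1.06 for Nrp2. For the ligands the median ratios were 0.439 for Vegfa, 0.677 for Pgf and 0.119 for Vegfb. Mouse and human values had each been scaled on their own, so these are not ratios of reads. They do not tell which species made more of a transcript in the mixed tissue.

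Tumour VEGFA had 1161, 1240, 2264 and 1546 normalized reads in combination libraries, 988, 626, 1058 and 614 in alpelisib libraries, 1029, 1377, 1320 and 804 in nintedanib libraries, and 723, 868, 1046 and 1127 in vehicle libraries. All 4 combination libraries exceeded all vehicle and all alpelisib libraries, by little at the nearest (1161 against 1127 with vehicle). The share of all human genes whose groups separate in this way was not computed, so this has no background to be read against. The log2 fold change of VEGFA against vehicle was 0.69 with the combination (SE 0.23, limma adjusted p = 0.508), -0.22 with alpelisib and 0.26 with nintedanib (SE 0.23, limma adjusted p = 1 and 0.689). Of the 7 human genes, 0 passed against vehicle with any treatment, beside 0% of the 17663 human genes tested. VEGFA with the combination was the only one of these values with an unadjusted limma p under 0.05, as 1 of 7 genes with the combination against a background of 8.16% of human genes. It was 0 of 7 with alpelisib, against 2.48%, and 0 of 7 with nintedanib, against 11.6%. The combination against alpelisib gave 0.91 for VEGFA (SE 0.23, limma adjusted p = 0.415) and 0.93 for PGF (SE 0.43, limma adjusted p = 0.585). Averaged over alpelisib, nintedanib gave 0.58 for VEGFA (SE 0.16, limma adjusted p = 0.177) and 0.71 for PGF (SE 0.30, limma adjusted p = 0.300).

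Host and tumour ligand levels went together library by library. For Vegfa and VEGFA r was 0.856 (permutation p = 3e-05, adjusted p = 0.00024) and rho 0.888 (permutation p = 2e-05, adjusted p = 0.000533), with r of 0.836 within groups and 0.870 without combination 3 and alpelisib 4. For Pgf and PGF r was 0.884 (permutation p = 1e-05, the smallest that 100000 permutations can give, adjusted p = 0.000213) and rho 0.838 (permutation p = 0.0001, adjusted p = 0.0008), with r of 0.863 within groups and 0.840 without alpelisib 2 and vehicle 2. For Vegfb and VEGFB r was 0.224 (permutation p = 0.404, adjusted p = 0.587) and rho 0.271 (permutation p = 0.308, adjusted p = 0.457). How reads fitting both genomes were assigned is not given in the sources used here, and its part in these relations was not tested.

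**Figure D5:**
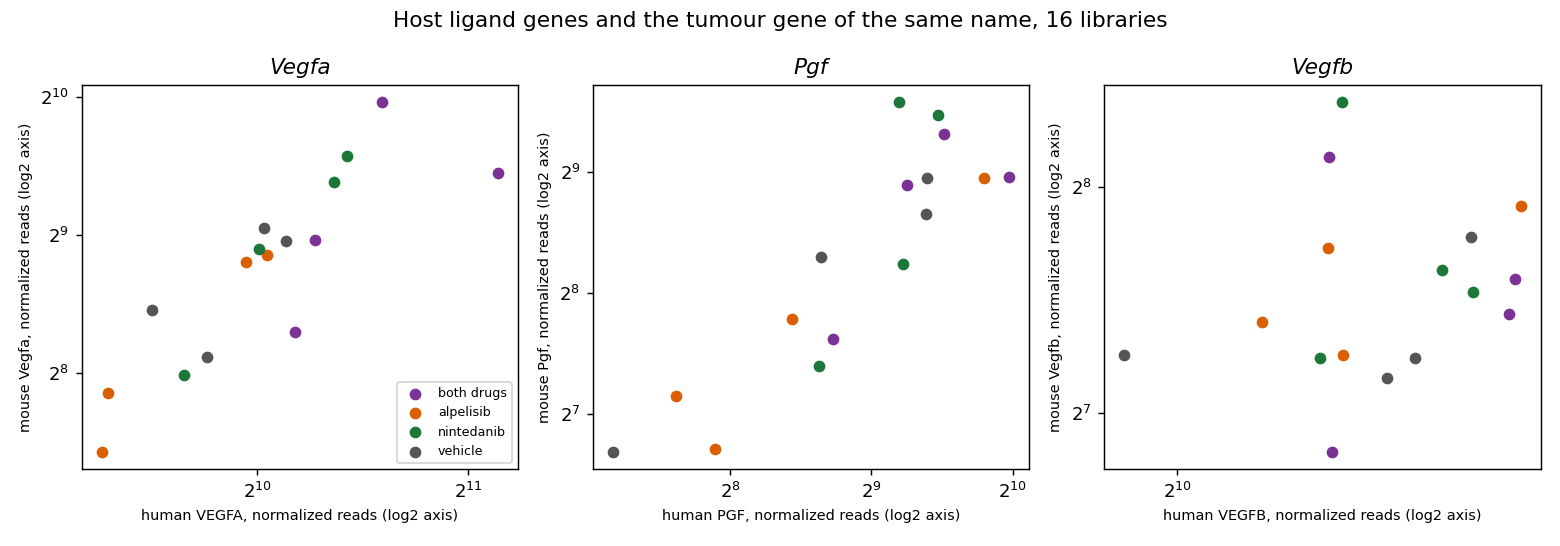
Mouse against human normalized reads (both axes log2) of the 3 ligand genes in 16 libraries, coloured by group. Host and tumour Vegfa and Pgf lie along rising bands (r = 0.856 and 0.884), and Vegfb does not (r = 0.224).

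Genes whose transcripts rise when VEGF signals in endothelial cells were described from a list of 19, of which 17 were tested. Mcam, an adhesion molecule of endothelial cells and pericytes, was the only member called in limma and in edgeR. It had 339, 238, 213 and 278 normalized reads in combination libraries, 395, 357, 481 and 407 in alpelisib libraries, 276, 273, 342 and 255 in nintedanib libraries, and 610, 523, 578 and 686 in vehicle libraries. Every library of every drug group lay below every vehicle library. Over all mouse genes, groups did not overlap for 3.85% with the combination, 2.10% with alpelisib and 3.69% with nintedanib. Mcam was named for its small p, so its separation is no further test. Mcam fell by 1.18 on the log2 scale with the combination (SE 0.17, limma adjusted p = 0.0205) and, averaged over alpelisib, fell by 0.85 with nintedanib (SE 0.12, limma adjusted p = 0.00570). Against vehicle it was -1.06 with nintedanib (limma adjusted p = 0.0546) and -0.55 with alpelisib (limma adjusted p = 1). In limma the combination call was lost on leaving out combination 3, vehicle 3 or vehicle 4. It was also lost under scaling to the human plus mouse total (limma adjusted p = 0.276). Further losses came without the trend of variance with level (limma adjusted p = 0.107) and with only the compared groups in the fit (limma adjusted p = 0.163). The averaged call was lost under that scaling (limma adjusted p = 0.244) and without the trend (limma adjusted p = 0.0621).

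In limma with all libraries, others of that list stayed short of the threshold. At an unadjusted limma p under 0.05 there were 5 of 17 with the combination, 2 with alpelisib, 8 with nintedanib and 8 averaged over alpelisib. Over all mouse genes the shares were 7.67%, 3.26%, 6.01% and 8.80% in that order. DESeq2 called 2 of 17 with the combination (Mcam and Dll4), 1 with nintedanib against vehicle (Mcam) and 5 with nintedanib averaged over alpelisib (Mcam, Dll4, Esm1, Kcne3 and Apln). Over all mouse genes DESeq2 called 82, 29 and 158 in these contrasts. Without the 2 muscle-rich libraries limma called Dll4 too in the averaged contrast (adjusted p = 0.0439), where it called 54 over all mouse genes. Averaged over alpelisib, Dll4, a Notch ligand of endothelial tip cells, was at -1.05 with nintedanib (SE 0.21, limma adjusted p = 0.0574), Esm1, a proteoglycan of tip cells, at -1.31 (SE 0.33, limma adjusted p = 0.166), and the potassium channel subunit Kcne3 at -0.83 (SE 0.22, limma adjusted p = 0.197). Of the 17, 12 lay below 0 with nintedanib averaged over alpelisib (median -0.09, beside 0.02) and 13 of 17 with the combination against vehicle (median -0.23, beside 0.03). Under scaling to the human plus mouse total 8 of 17 lay below 0 in each. The medians of 0.02 averaged over alpelisib and 0.10 with the combination stayed below those of all genes (0.12 and 0.32). Apln, the ligand of the apelin receptor, was at -0.86 with the combination (SE 0.25, limma adjusted p = 0.356).

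Of 18 tested genes among other VEGF-family members, semaphorins and their receptors, 1 fell in limma with nintedanib averaged over alpelisib. Plxnd1, a plexin of endothelial cells that binds semaphorins, fell by 0.88 on the log2 scale (SE 0.17, limma adjusted p = 0.0479), a call lost in edgeR (adjusted p = 0.0587) and kept in DESeq2. In limma it was also lost without any one of combination 3 or 4, alpelisib 2 or 4, nintedanib 1, 2 or 3 and the 4 vehicle libraries. Other losses in limma came with the replicate block (limma adjusted p = 0.108) and under scaling to the human plus mouse total (limma adjusted p = 0.373). The call was lost too without the trend of variance with level (limma adjusted p = 0.1785) and without the filter on low values (limma adjusted p = 0.0649). Plxnd1 had 374, 379, 284 and 265 normalized reads with the combination, 391, 633, 363 and 704 with alpelisib, 312, 191, 272 and 356 with nintedanib, and 787, 544, 593 and 506 with vehicle. All combination and all nintedanib libraries lay below all vehicle libraries, beside 3.85% and 3.69% of all mouse genes whose groups did not overlap. Plxnd1, too, was named for its small p. Sema3f, a class 3 semaphorin that binds Nrp2, was at -0.53 (SE 0.16, limma adjusted p = 0.266), Ptprb, the endothelial phosphatase VE-PTP, at -0.47 (SE 0.19, limma adjusted p = 0.478) and Flt4, the VEGF receptor 3 of lymphatic vessels, at -0.87 (SE 0.36, limma adjusted p = 0.505). In this list 9 of 18 lay below 0 (median -0.001, beside 0.02).

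Among 24 genes that carry the receptor signal inside the cell, 0 were called in limma or edgeR with all libraries in the 4 contrasts examined. With the combination against vehicle 5 of 24 had an unadjusted p under 0.05, against 7.67% of all mouse genes. DESeq2 called 2 there (Rasip1 and Mapk3) and 3 averaged over alpelisib (these and Nos3), beside 82 and 158 over all mouse genes. Without the 2 muscle-rich libraries limma called Rasip1 with the combination (adjusted p = 0.0288) and averaged over alpelisib (adjusted p = 0.0138). Over all mouse genes limma called 24 and 54 without these libraries. The values that follow are for the combination against vehicle with all libraries. The endothelial Ras-interacting protein Rasip1 was at -1.67 (SE 0.40, limma adjusted p = 0.215) and the kinase Mapk3 at -0.83 (SE 0.21, limma adjusted p = 0.227). The endothelial nitric oxide synthase Nos3 was at -1.07 (SE 0.30, limma adjusted p = 0.312) and the adaptor Sh2d2a at 2.30 (SE 0.71, limma adjusted p = 0.378). Sh2d2a was near the floor, with 0 to 7.46 normalized reads in vehicle and 8.13 to 31.0 in combination libraries. The list as a whole had 16 of 24 above 0 (median 0.07, beside 0.03).

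Of 12 pericyte markers, which hold Mcam too, 9 lay below 0 with the combination, 12 with alpelisib and 9 with nintedanib against vehicle, with medians of -0.38, -0.38 and -0.42. Mcam alone passed, with the combination in limma, edgeR and DESeq2 and with nintedanib in DESeq2 only (DESeq2 adjusted p = 0.00024). Of macrophage, fibroblast, muscle, adipocyte and skin markers 0 passed in limma, edgeR or DESeq2 in these contrasts. At an unadjusted limma p under 0.05 there were 3, 0 and 1 of 13 macrophage markers with the combination, alpelisib and nintedanib, 1, 0 and 2 of 14 fibroblast markers, 0, 2 and 0 of 13 skin and hair markers and none of the muscle and adipocyte markers. Over all mouse genes the shares were 7.67%, 3.26% and 6.01% in that order. Summed macrophage markers were 14349 to 41161 normalized reads with the combination, 19481 to 32307 with alpelisib, 19520 to 22548 with nintedanib and 14796 to 26754 with vehicle. Muscle markers lay above 0 for 14 of 14 with the combination (median 0.95), 1 of 14 with alpelisib (median -0.47) and 14 of 14 with nintedanib (median 1.54). Their mean log2 level was 13.2 in nintedanib 4 and 12.6 in combination 1. It was 5.89 to 6.51 in the other nintedanib libraries, 2.75 to 8.92 in the other combination libraries and 3.13 to 10.1 with vehicle. The direction with nintedanib and with the combination leans on these single libraries. Adipocyte markers lay below 0 for 12 of 12 with nintedanib (median -0.95), while 11 of 12 lay above 0 with alpelisib (median 1.1) and 7 of 12 with the combination (median 0.02). Their summed reads were 694 to 5425 with the combination, 910 to 15814 with alpelisib, 600 to 1369 with nintedanib and 546 to 24506 with vehicle. On the mean log2 level vehicle 1 had 9.50, beside 3.30 to 5.34 in the other vehicle libraries and 3.54 to 5.43 with nintedanib. Skin and hair markers lay above 0 for 8 of 13 with the combination (median 0.26), 12 of 13 with alpelisib (median 1.04) and 9 of 13 with nintedanib (median 0.26). Fibroblast markers did so for 11 of 14 with the combination (median 0.24), 4 of 14 with alpelisib (median -0.13) and 11 of 14 with nintedanib (median 0.31). The part of these cell types in the values of the 7 genes was not tested.

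The genes most like each of the 7 across the 16 libraries, by r of log2 values among 8735 genes at or above median expression, are given as a description. For Vegfa they were Ddit4 (r = 0.915), 4931428F04Rik (0.904) and Ndrg1 (0.896), and for Pgf they were the lactate transporter Slc16a3 (0.951), Ndrg1 (0.945) and the oxidoreductase Ero1l (0.941). For Vegfb they were Cdc34 (0.954), Sdhb (0.946) and Uqcrc1 (0.903), the last pair being subunits of mitochondrial respiratory complexes. For Kdr they were Ehmt1 (0.844), Cd93 (0.834), a surface protein of endothelial cells, and Dync1i2 (0.802). For Flt1 they were BC017647 (0.853), Lpar4 (0.800) and Trim2 (0.787), for Nrp1 Ppp3ca (0.870), Zfp318 (0.869) and Zfhx3 (0.843), and for Nrp2 Slc23a2 (0.830), Atl3 (0.816) and Tial1 (0.801). With group means subtracted, r was 0.876 to 0.965 for the genes nearest the ligands and 0.659 to 0.857 for those nearest the receptors and co-receptors.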

How the data were processed

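The deposited tables hold a signal, one normalized expression value per gene and library, made by the authors from 3′ mRNA-Seq libraries (75-bp reads, per the labels' protocols) with TopHat and the builds hg19 and mm10, per the submitters' processing notes. Counting tool and annotation: not given in the sources used here. Within 0.01 read, 100% of values were whole multiples of 1 step per library, equal to median-of-ratios scaling, so whole reads could be recovered. Read depth bears on counting error only, and not on the spread among libraries of a group. Genes that reached a value of 1 in 4 or more libraries were fitted as log2(value + 1) with limma 3.58.1 (trend) in R 4.3.3, with 1 mean per group over 16 libraries and Benjamini-Hochberg adjustment over all tested genes at 0.05. Exact permutation tests and 100000 permutations for correlations were two-sided. The fit was run on simulated data, and its power to find changes with 4 libraries per group is not reported here. Alternatives used edgeR 4.0.16 and DESeq2 1.42.0 among others. The 7 genes, the lists and the 2 muscle-rich libraries were chosen with earlier results of these data known. Named were all 7 genes, up to 4 per list with the smallest p in a contrast described, and the 3 genes most like each. Vessel and other lists were scored as mean log2 values. No library was left out.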

Additional observations from a re-analysis of the deposited data

Results flagged for a closer look

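In 3 cases the highest or lowest library stood apart from the others of its group by a gap beyond the 95% limit of Dixon's test. They were Kdr in alpelisib 2, at 307.8 normalized reads and below the other alpelisib libraries, Nrp2 in vehicle 1, at 352.2 and below the other vehicle libraries, and Vegfb in vehicle 1, at 219.5 and above the other vehicle libraries. Vehicle 1 also had the highest summed adipocyte markers, whose part in its values was not tested. In all, 28 groups of 4 libraries were looked at, and chance flags about 1 in 20 groups. Without alpelisib 2 or vehicle 1, 0 of the 7 genes were called.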

How the results depend on the processing

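Under 27 alternative settings 0 of the 7 genes were called in any comparison, with adjusted p of 0.101 at the lowest. Scaling to the human plus mouse total reversed Nrp1 with nintedanib (0.0004263), the combination (0.06623) and nintedanib averaged (0.1038), and Nrp2 with alpelisib (0.0009645), the combination (0.2216) and nintedanib averaged (0.03475). Nrp1 for nintedanib averaged was also reversed in edgeR (0.01091) and DESeq2 (0.009997). Without the 2 muscle-rich libraries Vegfb was reversed with the combination (-0.07169) and nintedanib averaged (-0.08911). Relative to endothelial markers, Kdr with nintedanib was -0.02038 at a pseudocount of 0.1. Relative Flt1 with the combination was 0.01457 with quantile normalization, 0.03295 at that pseudocount and 0.0983 without the muscle-rich libraries, and with nintedanib 0.0805 without them. Relative Kdr for nintedanib averaged passed at 0.3613 without them. The cause was not tested.

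Leaving out each library gave -0.275 to 0.04915 for Nrp1 with nintedanib, -0.1107 to 0.08484 for Nrp1 averaged and -0.07169 to 0.3616 for Vegfb with the combination. Relative Kdr ran from -0.1188 to 0.2274 with nintedanib and -0.05331 to 0.2551 with the combination. Relative Flt1 ran from -0.3477 to 0.1321 with nintedanib, -0.3099 to 0.2651 with the combination and -0.9622 to -0.4824 with alpelisib.

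Alternatives for list genes were chosen after seeing the data. Mcam lost its call under 6 of 27 settings with the combination and 2 of 26 averaged, Esam under 13, Cdh5 under 16 and Plxnd1 under 16 of 26, each keeping its direction. Over all mouse genes, calls for the combination against vehicle numbered 9, and 82 in DESeq2, 7 in edgeR, 24 without the muscle-rich libraries, 15 at a value of at least 10, 3 with the replicate block, 1 scaled to the total, 0 without the trend, 0 with only the groups compared and 0 to 16 on leaving out a library. For nintedanib averaged they numbered 17, and 158, 12, 54, 20, 12, 3 and 4 in the same order down to the fit without the trend, and 9 to 31 on leaving out a library. DESeq2 called 29 genes with nintedanib against vehicle and 29 with the combination against alpelisib, where limma called 0. Other comparisons with 0 calls had at most 3 under any other setting.

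The deviations of same-numbered libraries were at most weakly correlated (24 correlations from -0.287 to 0.171, 3 over 0.1). Whether equal numbers mark shared handling is not in the labels, and weak correlations cannot exclude it. With the replicate block 0 of 7 genes were called, and Kdr with the combination had an adjusted p of 0.551.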
